A study of Homo sapiens with 6 samples.

Results

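Nuclear receptors are transcription factors that carry a DNA-binding domain with zinc fingers and, in most cases, a pocket for a hormone, vitamin, lipid or other small molecule. This is an account of 32 of them and of 5 of their main coregulators in T47D, an oestrogen receptor-positive human breast ductal carcinoma line. The 37 genes were picked by gene symbol, for their family or role, from a table of 17758 genes. They were picked with earlier results of these data known. All 37 were in the table, and all 37 passed the filter on low counts and were tested. A lentiviral hairpin against CUEDC1 was expressed in 3 libraries (shCUEDC1), and a non-targeting hairpin in the other 3 (shNC). Both kinds of cell were stably transduced and grown in serum-containing medium, and the labels name no added hormone. The number of hairpins, infections or clones is not stated.

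As background, a ligand-bound receptor recruits coactivators of the p160 family (NCOA1, NCOA2 and NCOA3) and the Mediator subunit MED1, while many unliganded receptors hold the corepressor NCOR1. In luminal breast epithelium the oestrogen receptor ESR1 drives growth and differentiation, and the progesterone receptor PGR is one of its classical target genes. Retinoid, thyroid, vitamin D, PPAR and liver X receptors pair with the RXR proteins. The COUP, REV-ERB and NR4A proteins are called orphan receptors because they were found without a known hormone.

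CUEDC1, the gene targeted by the hairpin, was at 23.2, 24.4 and 22.8 TPM in shCUEDC1 1, 2 and 3, against 79.4, 80.5 and 70.6 TPM in shNC 1, 2 and 3. TPM is a level scaled to gene length and library size. Its log2 change was -1.68 (SE 0.0755, edgeR adjusted p = 9.27e-06), and an exact two-sided permutation test gave 0.1, the lowest p open to 3 against 3 libraries. The luminal markers were all present, with KRT8 between 3879 and 4175 TPM in shCUEDC1 and between 2585 and 4126 TPM in shNC. Markers of other cells were low: the summed level of 3 endothelial markers was at most 0.300 TPM in shCUEDC1 and 0.150 TPM in shNC, and that of 3 fibroblast markers at most 1.33 TPM in shCUEDC1 and 0.960 TPM in shNC. The 4 basal markers summed to 32.6 to 36.0 TPM in shCUEDC1 and 29.2 to 49.4 TPM in shNC. Most of this was ACTA2, at 27.3 to 31.1 TPM in shCUEDC1 and 24.4 to 41.5 TPM in shNC. TP63 was at 4.58 to 5.19 TPM in shCUEDC1 and 4.43 to 7.05 TPM in shNC. KRT5 and KRT14 were each at most 0.310 TPM in shCUEDC1 and 0.640 TPM in shNC. The 4 leukocyte markers summed to 16.3 to 16.5 TPM in shCUEDC1 and 7.91 to 9.68 TPM in shNC. Of these, LYZ was at 10.9, 11.0 and 10.6 TPM in shCUEDC1 1, 2 and 3, against 3.25, 2.83 and 4.31 TPM in shNC 1, 2 and 3. The defining leukocyte marker PTPRC was at most 1.11 TPM in shCUEDC1 and 1.33 TPM in shNC, and CD3E was at 0 in all libraries but shCUEDC1 3. The part of these markers in the results was not tested. In bulk RNA, fewer cells of a type and less RNA per cell cannot be told apart.

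Library shNC 3 stood apart from its own group. Set against shNC 1 and 2, it gave log2 differences with an SD of 0.246 and 0.266 across 10142 genes, where those 2 libraries differed with an SD of only 0.109. Its level lay outside the range of the other 5 libraries for 22 of the 37 members in TPM, where the same held for 53.1% of all genes tested, and for 21 in TMM-normalised CPM, against 53.8% of all genes. Values without this library are given below beside those that change with it in call or direction, or move by over 1.5 times.

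The receptors covered a wide range of levels. With all 6 libraries averaged, 23 members were at or above 10 TPM, 10 between 1 and 10 TPM and 4 below 1 TPM. The most abundant receptors were NR2F2 and NR2F6 of the COUP family, at 88.9 and 87.1 TPM, followed by VDR (72.8), RARA (69.0), RARG (60.3) and RXRA (56.5). These levels are close enough in places that the order is not fixed: NR2F2 was at 87.4 ± 1.54 TPM in shCUEDC1 and 90.3 ± 18.2 TPM in shNC, and NR2F6 at 89.5 ± 4.31 TPM in shCUEDC1 and 84.7 ± 4.93 TPM in shNC (SD, n = 3 each), so this pair overlapped, as did PGR, ESR1, MED1, ESRRA and RXRB, which lay between 37.6 and 41.6 TPM. The lowest 4 were PPARG (0.912), RORA (0.390), NR4A3 (0.215) and ESRRG (0.198 TPM). NR4A3 and ESRRG rested on 6.56 to 19 and 6.58 to 15 estimated reads per library. The 32 receptors together summed to 832, 852 and 799 TPM in shCUEDC1 1, 2 and 3, against 802, 835 and 789 TPM in shNC 1, 2 and 3. The sums overlapped between the groups.

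**Figure D1:**
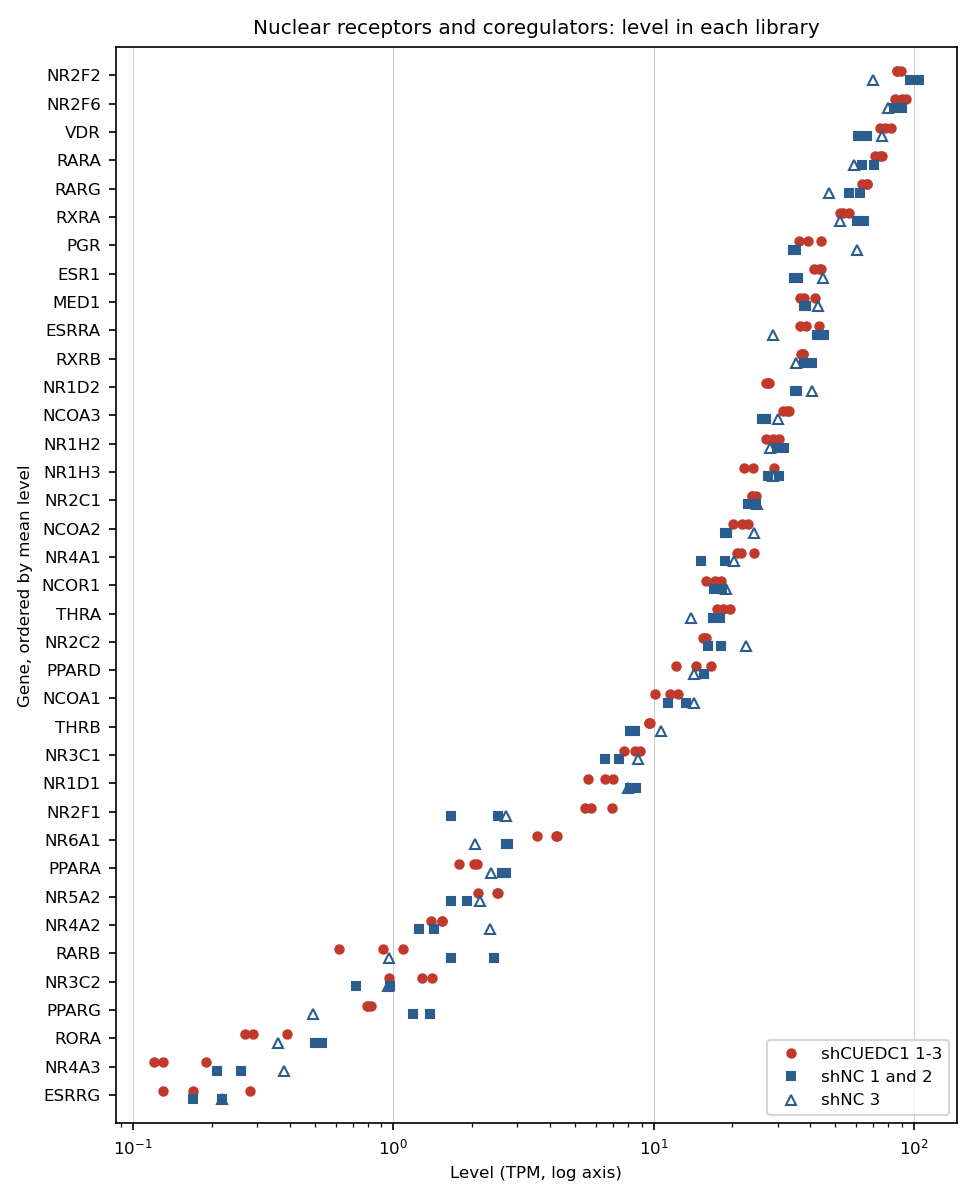
Level of each of the 37 genes in TPM (log axis) in every library, with genes ordered by mean level. Circles are the 3 shCUEDC1 libraries, squares shNC 1 and 2, and open triangles shNC 3. NR2F2 and NR2F6 are highest, at 88.9 and 87.1 TPM on average, and ESRRG is lowest at 0.198 TPM.

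With all 6 libraries, 3 members rose and 1 fell after CUEDC1 knockdown, and 33 were not called. NR2F1, NR6A1 and NCOA3 rose, and NR1D2 fell. Over all genes tested, 9.96% were called in either direction, 5.19% higher and 4.77% lower in shCUEDC1, so 4 of 37 (10.8%) is near that background and is not a result about the members as a set. The median log2 change was -0.012 over the members and -0.0040 over all genes tested. Changes were mostly small, with 33 members differing by less than 1.5-fold. In TPM the groups did not overlap for 11 members, 6 higher and 5 lower in shCUEDC1, where 30.7% of all genes did not overlap, 12.1% higher and 18.5% lower. An unadjusted p below 0.05 was reached by 16 of the 37 members (43.2%) and by 25.2% of all genes tested. The latter share is the background for the counts at that p below. DESeq2 called 5 of the 37 members (13.5%) and 10.6% of all genes tested, and the latter is the background for its counts below.

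**Figure D2:**
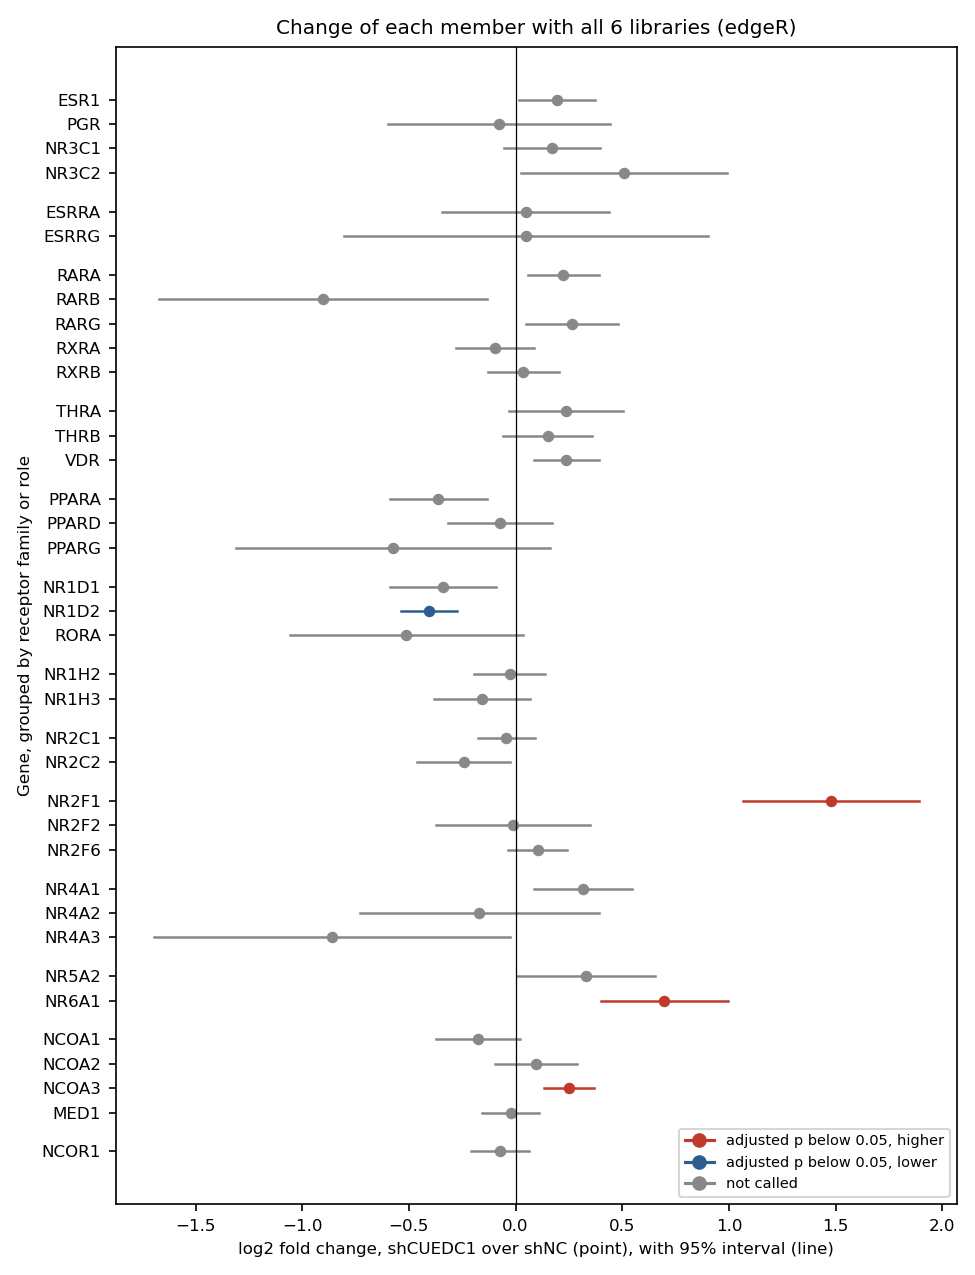
The log2 fold change of each gene, shCUEDC1 over shNC (horizontal axis), with its 95% interval from edgeR, grouped by receptor family or role. NR2F1, NR6A1 and NCOA3 are called higher and NR1D2 lower, and the widest intervals belong to ESRRG, NR4A3 and RARB.

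NR2F1 (Entrez 7025), also named COUP-TFI, an orphan receptor that mostly represses transcription and patterns the developing nervous system, had the largest change of the 37 members with all 6 libraries. The gene occupies bases 93583224 to 93594615 of chromosome 5, plus strand (GRCh38). Its level was 5.76, 5.44 and 6.90 TPM in shCUEDC1 1, 2 and 3, against 1.67, 2.53 and 2.71 TPM in shNC 1, 2 and 3. All 3 shCUEDC1 libraries lay above all 3 shNC libraries. NR2F1 rose 2.79-fold, a log2 change of 1.48 (SE 0.184, 95% interval 1.07 to 1.89, edgeR adjusted p = 0.00148). It was called in all 6 fits that left out 1 library, with log2 changes from 1.33 to 1.6, and under each of the other 8 settings run. The gene shares 158 of its 4314 exon bases with the antisense gene NR2F1-AS1, and reads of that stretch cannot be told apart without strand.

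The paralogue NR2F2 (COUP-TFII), which is much more abundant in these cells, was at 86.7, 86.4 and 89.2 TPM in shCUEDC1 1, 2 and 3 and at 96.5, 104.6 and 69.9 TPM in shNC 1, 2 and 3. The groups overlapped, with shNC 3 the lowest of the 6 libraries and shNC 2 the highest. NR2F2 differed by -0.01 (95% interval -0.37 to 0.35, edgeR adjusted p = 0.97), and by -0.18 without shNC 3 (edgeR adjusted p = 0.00179). NR2F1 was at 6.65%, 6.30% and 7.74% of the NR2F2 level in shCUEDC1 1, 2 and 3, against 1.73%, 2.42% and 3.88% in shNC 1, 2 and 3. NR2F2 was the more abundant of the pair in every library, and the ratio did not overlap between the groups. NR2F6, the third member of the COUP family, differed by 0.10 (95% interval -0.03 to 0.24, edgeR adjusted p = 0.337).

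NR6A1 (Entrez 2649), the germ cell nuclear factor, is an orphan receptor that silences pluripotency genes in differentiating mouse embryonic stem cells. The gene occupies bases 124517275 to 124771310 of chromosome 9, minus strand. NR6A1 was at 4.21, 4.26 and 3.57 TPM in shCUEDC1 1, 2 and 3, against 2.72, 2.75 and 2.06 TPM in shNC 1, 2 and 3. The groups did not overlap, and shNC 3 was the lowest library. NR6A1 rose 1.62-fold (log2 change 0.70, SE 0.132, 95% interval 0.40 to 0.99, edgeR adjusted p = 0.0105). Its call was lost without shCUEDC1 1 (edgeR adjusted p = 0.0624) and without shCUEDC1 2 (0.0662), while the log2 change stayed between 0.57 and 0.77 in the fits that left out 1 library. NR5A2, the liver receptor homologue, which induces aromatase in adipose stroma of the breast, was at 2.38 ± 0.229 TPM in shCUEDC1 and 1.91 ± 0.245 TPM in shNC (SD, n = 3 each) and differed by 0.33 (edgeR adjusted p = 0.191). Without shNC 3, NR5A2 differed by 0.41 and was called (edgeR adjusted p = 0.0426).

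NCOA3 (Entrez 8202), the p160 coactivator also named SRC-3 or AIB1 for its amplification in breast cancer, was at 32.7, 33.03 and 31.4 TPM in shCUEDC1 1, 2 and 3. It was at 26.2, 27.1 and 30.0 TPM in shNC 1, 2 and 3. The groups did not overlap, but shNC 3 lay nearer to shCUEDC1 3 than to shNC 1. NCOA3 rose 1.19-fold (log2 change 0.25, SE 0.0529, 95% interval 0.13 to 0.37, edgeR adjusted p = 0.0171). Its call was lost without shCUEDC1 1, 2 or 3 (edgeR adjusted p = 0.0794, 0.0993 and 0.0751) and without shNC 1 (0.0784), and in limma-trend on log2(TPM + 0.5) and log2(TPM + 0.1) (adjusted p = 0.0913 and 0.0904). The 3′ end of NCOA3, which occupies bases 47501902 to 47656877 of chromosome 20, plus strand, shares 96 of 8402 exon bases with SULF2 on the other strand. SULF2, an extracellular sulfatase, was at 0.633 ± 0.116 TPM in shCUEDC1 and 2.60 ± 0.929 TPM in shNC and fell by 2.00 on the log2 scale (edgeR adjusted p = 0.00421).

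NR1D2 (Entrez 9975), the REV-ERB beta receptor, is a haem-binding repressor of the circadian clock genes. The gene occupies bases 23945260 to 23980618 of chromosome 3, plus strand. NR1D2 was at 27.9, 27.6 and 27.0 TPM in shCUEDC1 1, 2 and 3, against 35.0, 35.7 and 40.7 TPM in shNC 1, 2 and 3. The shCUEDC1 libraries lay close together and below every shNC library, of which shNC 3 was the highest. NR1D2 fell by 24.5%, a log2 change of -0.41 (SE 0.0590, 95% interval -0.54 to -0.27, edgeR adjusted p = 0.00290). It was called under all 14 alternatives run, with log2 changes from -0.44 to -0.35 in the fits that left out 1 library.

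**Figure D3:**
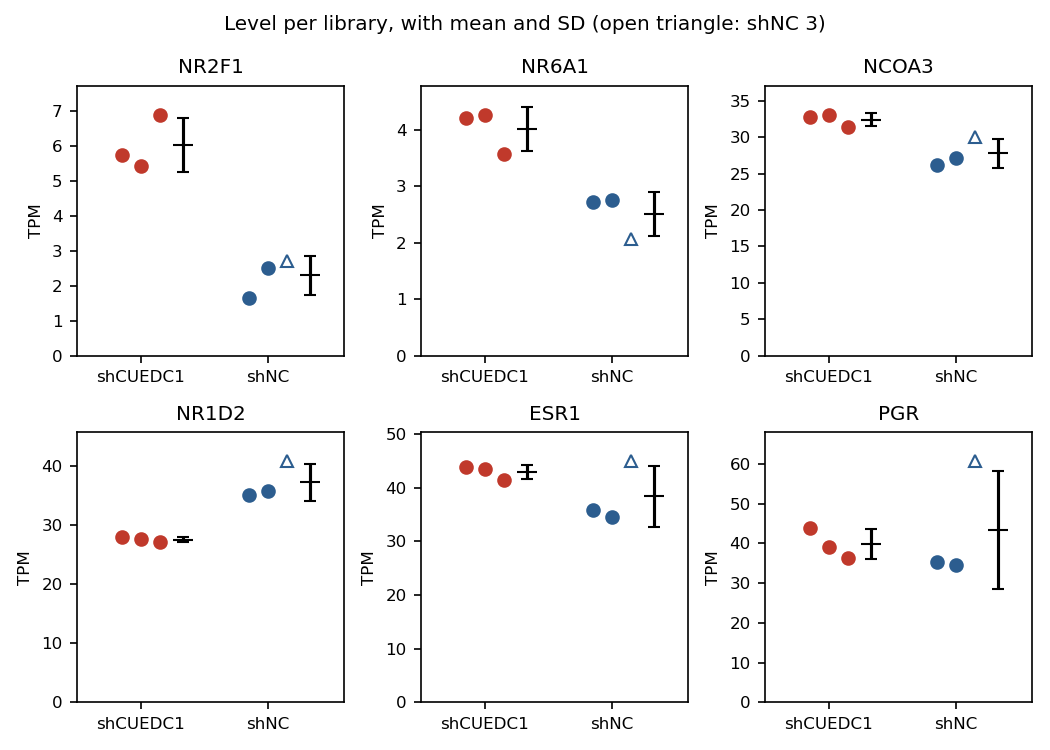
Level in TPM (vertical axis, from 0) in each shCUEDC1 and shNC library for the 4 called genes and for ESR1 and PGR, with mean and SD beside the points. Open triangles mark shNC 3, which is the highest library for ESR1 at 44.9 TPM and for PGR at 60.6 TPM.

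The promoters of the 4 called members are shown because these are the members whose RNA changed with all 6 libraries, and they were searched for response elements that nuclear receptors or clock factors are known to bind. The sequences are from RefSeq (GRCh38.p14) and run from 250 bases before to 50 bases after an annotated start, 5′ to 3′ on the gene's own strand. They lie at chr5:93582972-93583271 (NR2F1, plus), chr9:124771262-124771561 (NR6A1, minus), chr20:47501637-47501936 (NCOA3, plus) and chr3:23945871-23946170 (NR1D2, plus). NR1D2 has another annotated window upstream, at chr3:23945036-23945335, which spans the gene start given above and is not shown. Capitals mark matches on either strand to AGGTCA and AGTTCA (hexamers that receptors bind), AGAACA (a steroid receptor hexamer), CACGTG (an E-box) or the palindromic oestrogen response element.
NR2F1: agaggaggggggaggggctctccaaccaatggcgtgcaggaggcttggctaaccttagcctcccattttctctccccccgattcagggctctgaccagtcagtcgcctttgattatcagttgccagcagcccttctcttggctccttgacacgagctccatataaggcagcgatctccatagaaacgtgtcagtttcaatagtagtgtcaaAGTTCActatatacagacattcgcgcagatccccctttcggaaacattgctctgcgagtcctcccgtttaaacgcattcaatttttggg
NR6A1: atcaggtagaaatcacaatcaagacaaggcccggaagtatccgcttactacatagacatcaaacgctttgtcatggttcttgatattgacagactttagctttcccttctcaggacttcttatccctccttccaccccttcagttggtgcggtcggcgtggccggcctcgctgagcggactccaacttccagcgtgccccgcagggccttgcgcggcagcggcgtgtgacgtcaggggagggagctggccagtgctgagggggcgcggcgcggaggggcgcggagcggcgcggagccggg
NCOA3: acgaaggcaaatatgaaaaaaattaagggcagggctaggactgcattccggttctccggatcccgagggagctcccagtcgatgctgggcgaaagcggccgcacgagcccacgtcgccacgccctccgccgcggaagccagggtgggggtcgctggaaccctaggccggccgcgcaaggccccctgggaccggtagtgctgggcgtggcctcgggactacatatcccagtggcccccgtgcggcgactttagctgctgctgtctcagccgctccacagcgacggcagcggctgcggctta
NR1D2: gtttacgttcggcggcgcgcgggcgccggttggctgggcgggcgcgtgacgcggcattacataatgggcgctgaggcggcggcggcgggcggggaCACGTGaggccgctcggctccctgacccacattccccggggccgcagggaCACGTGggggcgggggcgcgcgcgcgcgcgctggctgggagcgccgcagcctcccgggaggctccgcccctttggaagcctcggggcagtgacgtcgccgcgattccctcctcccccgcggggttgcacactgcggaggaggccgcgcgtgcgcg

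The NR1D2 window holds CACGTG 155 and 105 bases before the start, and 7.26% of all 35116 RefSeq windows of this length hold that motif. The NR2F1 window holds AGTTCA 39 bases before the start, a motif in 10.4% of all windows. The NR6A1 and NCOA3 windows hold none of the 5 motifs. A second annotated window of NR2F1 holds AGTTCA and AGAACA. The upstream window of NR1D2, at its gene start, holds none of the motifs. The CACGTG matches of NR1D2 are thus in its downstream window only. Over the 81 windows of the 33 members with an entry, AGGTCA was in 11.1% against 13.8% of all windows, AGTTCA in 13.6% against 10.4%, CACGTG in 7.41% against 7.26% and AGAACA in 14.8% against 14.8%. The oestrogen response element was in 0 of the 81 windows and in 0.0570% of all windows. These letters are a description of the windows, not of binding.

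The steroid receptors, which answer to oestrogen, progesterone, cortisol and aldosterone, had 0 called members among 4 with all 6 libraries by edgeR and by DESeq2, and 2 had an unadjusted p below 0.05. ESR1 was at 43.9, 43.4 and 41.5 TPM in shCUEDC1 1, 2 and 3, against 35.8, 34.5 and 44.9 TPM in shNC 1, 2 and 3. In TPM the 3 shCUEDC1 libraries lay above shNC 1 and 2 and below shNC 3. In TMM-normalised counts shNC 3 lay within the range of the shCUEDC1 libraries. ESR1 differed by 0.19 (95% interval 0.02 to 0.37, edgeR adjusted p = 0.165), and by 0.30 without shNC 3 (edgeR adjusted p = 1.92e-06).

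PGR, an oestrogen-induced gene and the receptor for progesterone, was at 43.9, 39.1 and 36.4 TPM in shCUEDC1 1, 2 and 3, against 35.3, 34.5 and 60.6 TPM in shNC 1, 2 and 3. Library shNC 3 was the highest of the 6 and shNC 1 and 2 were the lowest. PGR differed by -0.08 with all libraries (95% interval -0.60 to 0.44, edgeR adjusted p = 0.87) and by 0.22 without shNC 3 (edgeR adjusted p = 0.00137), so its direction changed when 1 library was left out. The PGR level was 100.02%, 90.1% and 87.6% of the ESR1 level in shCUEDC1 1, 2 and 3, against 98.5%, 99.9% and 134.9% in shNC 1, 2 and 3.

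The glucocorticoid receptor NR3C1 was at 8.85, 8.51 and 7.68 TPM in shCUEDC1 1, 2 and 3 and at 7.39, 6.49 and 8.75 TPM in shNC 1, 2 and 3. Its groups overlapped through shNC 3 alone. NR3C1 differed by 0.17 (95% interval -0.05 to 0.39, edgeR adjusted p = 0.331), and by 0.28 without shNC 3 (edgeR adjusted p = 0.00755). The mineralocorticoid receptor NR3C2, at 1.22 ± 0.233 TPM in shCUEDC1 and 0.880 ± 0.139 TPM in shNC (SD, n = 3 each), differed by 0.51 (95% interval 0.03 to 0.99, edgeR adjusted p = 0.177).

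The oestrogen-related receptors, which bind elements like those of ESR1 without oestrogen and govern mitochondrial genes, had 0 called members among 2 by edgeR and by DESeq2, and 0 had an unadjusted p below 0.05. ESRRA was at 38.6, 43.3 and 36.5 TPM in shCUEDC1 1, 2 and 3, against 42.6, 45.3 and 28.8 TPM in shNC 1, 2 and 3. The groups overlapped, with shNC 3 the lowest library and shNC 2 the highest. ESRRA differed by 0.05 (95% interval -0.34 to 0.44, edgeR adjusted p = 0.902) and by -0.14 without shNC 3 (edgeR adjusted p = 0.104). ESRRG differed by 0.05 with an interval of -0.80 to 0.90, at 6.58 to 15 estimated reads per library. DESeq2 gave ESRRG no adjusted p.

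Retinoid receptors, which mediate the response to retinoic acid, had 0 called members among 5 by edgeR and by DESeq2, and 3 had an unadjusted p below 0.05. RARA was at 74.0, 75.7 and 71.1 TPM in shCUEDC1 1, 2 and 3, against 63.5, 70.7 and 59.1 TPM in shNC 1, 2 and 3. The groups did not overlap, but shCUEDC1 3 and shNC 2 nearly met. RARA differed by 0.22 (SE 0.0739, edgeR adjusted p = 0.0889) and RARG, the isotype of skin and other epithelia, by 0.27 (SE 0.0955, edgeR adjusted p = 0.117). Both were called without shNC 2 (edgeR adjusted p = 0.0254 and 0.0384) and without shNC 3 (0.0156 and 0.0161). RARB, which is itself a retinoic acid-induced gene and is often silenced in breast cancer, was low at 0.910, 0.620 and 1.09 TPM in shCUEDC1 1, 2 and 3, against 1.67, 2.44 and 0.960 TPM in shNC 1, 2 and 3. It differed by -0.90 (95% interval -1.67 to -0.13, edgeR adjusted p = 0.136), and by -1.19 without shNC 3 (edgeR adjusted p = 6.54e-04). RXRA and RXRB, the shared partners, differed by -0.10 and 0.04 (edgeR adjusted p = 0.52 and 0.816), and RXRA by -0.19 without shNC 3 (edgeR adjusted p = 0.00114).

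Thyroid hormone and vitamin D receptors had 0 called members among 3 by edgeR and 1 by DESeq2, and 1 had an unadjusted p below 0.05. VDR, the receptor for calcitriol, was at 77.6, 81.8 and 74.4 TPM in shCUEDC1 1, 2 and 3, against 66.1, 61.0 and 75.7 TPM in shNC 1, 2 and 3. In TPM only shNC 3 overlapped with the shCUEDC1 libraries, and in TMM-normalised counts the groups did not overlap. VDR differed by 0.24 (95% interval 0.08 to 0.39, edgeR adjusted p = 0.0571), just outside the threshold. It was called by DESeq2 (adjusted p = 0.0267), without a low-count filter (edgeR adjusted p = 0.0382) and without shNC 3 (edgeR adjusted p = 1.75e-06, log2 change 0.32). THRA and THRB, the thyroid hormone receptors, differed by 0.24 and 0.15 (edgeR adjusted p = 0.258 and 0.36), and without shNC 3 by 0.10 and 0.27 (edgeR adjusted p = 0.308 and 0.00210). The 3′ exons of THRA and NR1D1 overlap on opposite strands by 263 bases, which is 9.49% of the exon bases of NR1D1 and 3.78% of those of THRA, so reads there cannot be assigned to either gene without strand.

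The PPAR family, receptors for fatty acids, had 0 called members among 3 by edgeR and by DESeq2, and 1 had an unadjusted p below 0.05. PPARD, the highest of them, was at 14.5, 16.6 and 12.2 TPM in shCUEDC1 1, 2 and 3, against 15.6, 15.6 and 14.3 TPM in shNC 1, 2 and 3. The shCUEDC1 libraries spread to both sides of the shNC libraries, and PPARD differed by -0.07 (95% interval -0.32 to 0.17, edgeR adjusted p = 0.731). PPARA, which switches on fatty acid oxidation, was at 1.97 ± 0.166 TPM in shCUEDC1 and 2.56 ± 0.175 TPM in shNC (SD, n = 3 each), with groups that did not overlap. PPARA differed by -0.36 (edgeR adjusted p = 0.0521, SE 0.102), and it passed with the filter of 1 CPM (edgeR adjusted p = 0.0487) and without shNC 3 (0.00392). PPARG, the adipocyte regulator, differed by -0.57 (95% interval -1.31 to 0.16, edgeR adjusted p = 0.319), and by -0.84 without shNC 3 (edgeR adjusted p = 0.0196).

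Liver X receptors, the oxysterol sensors, had 0 called members among 2 by edgeR and by DESeq2, and 0 had an unadjusted p below 0.05. NR1H2 was at 30.5, 28.7 and 27.2 TPM in shCUEDC1 1, 2 and 3 and at 29.9, 31.6 and 28.0 TPM in shNC 1, 2 and 3, with overlapping groups. NR1H2 differed by -0.03 (95% interval -0.19 to 0.14) and NR1H3 by -0.16 (95% interval -0.38 to 0.07). Neither passed the test in any setting run.

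In the clock group, NR1D2 fell as above, and the other two differed in the same direction without a call. NR1D1, the REV-ERB alpha receptor, was at 6.37 ± 0.683 TPM in shCUEDC1 and 8.22 ± 0.332 TPM in shNC (SD, n = 3 each). It differed by -0.34 (SE 0.112, edgeR adjusted p = 0.0872), and by -0.37 without shNC 3 (edgeR adjusted p = 0.0135). RORA, which activates through the elements that REV-ERB proteins repress, differed by -0.51 at a level of 0.390 TPM (95% interval -1.06 to 0.04, edgeR adjusted p = 0.228). Without shNC 3, RORA differed by -0.67 (edgeR adjusted p = 0.0328).

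The testicular receptors, orphan receptors that bind direct repeats, had 0 called members among 2 by edgeR and by DESeq2, and 1 had an unadjusted p below 0.05. NR2C1 was at 24.7, 23.9 and 24.0 TPM in shCUEDC1 1, 2 and 3, against 23.2, 24.8 and 25.1 TPM in shNC 1, 2 and 3, and the groups overlapped. It differed by -0.04 (95% interval -0.18 to 0.09). NR2C2 differed by -0.24 (edgeR adjusted p = 0.156) and was called without shNC 2 (-0.34, edgeR adjusted p = 0.0360). Without shNC 3, the highest library at 22.7 TPM, the difference was -0.11 (edgeR adjusted p = 0.116). It shares 1197 of 11821 exon bases with MRPS25 on the opposite strand, which differed by -0.14 (edgeR adjusted p = 0.13).

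The NR4A receptors, which are immediate early genes induced by many stimuli, had 0 called members among 3 by edgeR and by DESeq2, and 2 had an unadjusted p below 0.05. NR4A1, or NUR77, was at 21.0, 24.4 and 21.7 TPM in shCUEDC1 1, 2 and 3, against 15.2, 18.8 and 20.4 TPM in shNC 1, 2 and 3. The groups did not overlap, though shCUEDC1 1 and shNC 3 were close. NR4A1 differed by 0.32 (95% interval 0.09 to 0.55, edgeR adjusted p = 0.0844), and by 0.39 without shNC 3 (edgeR adjusted p = 9.68e-04). NR4A2 and NR4A3 differed by -0.17 and -0.86 with wide intervals (-0.73 to 0.39 and -1.70 to -0.03), NR4A2 by 0.14 without shNC 3, and neither was called in any setting that judged it. DESeq2 gave NR4A3 no adjusted p, and the filter of 1 CPM left it out.

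Among the other coregulators, MED1, which links liganded receptors to RNA polymerase, was at 41.7, 38.0 and 36.7 TPM in shCUEDC1 1, 2 and 3, against 38.7, 37.8 and 42.7 TPM in shNC 1, 2 and 3. NCOR1 was at 18.1, 17.3 and 15.9 TPM in shCUEDC1 1, 2 and 3 and at 17.1, 18.3 and 18.9 TPM in shNC 1, 2 and 3. Both overlapped between the groups, with differences of -0.02 for MED1 (95% interval -0.16 to 0.11) and -0.07 for NCOR1 (95% interval -0.21 to 0.06), and a fall as large as that of NR1D2 lies outside both intervals. NCOA1 and NCOA2 differed by -0.18 and 0.09 (edgeR adjusted p = 0.248 and 0.549), and NCOA2 by 0.21 without shNC 3 (edgeR adjusted p = 0.00178). The level of NCOA3 was 263%, 286% and 311% of that of NCOA1 in shCUEDC1 1, 2 and 3, against 196%, 238% and 209% in shNC 1, 2 and 3, and this ratio did not overlap between the groups.

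Exons of 16 members overlap a gene on the opposite strand, and for these the reads of the shared stretch cannot be told apart without strand. Besides those given above, the share of the member's exon bases was 11.8% for RARA (with RARA-AS1), 10.3% for NR4A1, 9.37% for ESRRA (with TRMT112), 6.22% for RXRB (with SLC39A7), 5.27% for PGR (with PGR-AS1) and 4.17% for NR1H3 (with ACP2). The share was 2.08% for NCOR1 (with PIGL) and 0.757% for RARB (with TOP2B). TRMT112, SLC39A7, ACP2 and TOP2B were each more abundant than the member they overlap. TOP2B was at 63.3 ± 2.66 TPM in shCUEDC1 and 62.1 ± 4.45 TPM in shNC, where RARB was at 0.873 and 1.69 TPM. TRMT112 was at 354 ± 4.88 TPM in shCUEDC1 and 344 ± 16.4 TPM in shNC, and SLC39A7 at 264 ± 2.61 TPM in shCUEDC1 and 263 ± 11.7 TPM in shNC (SD, n = 3 each). The part of these overlaps in the results was not tested.

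**Figure D4:**
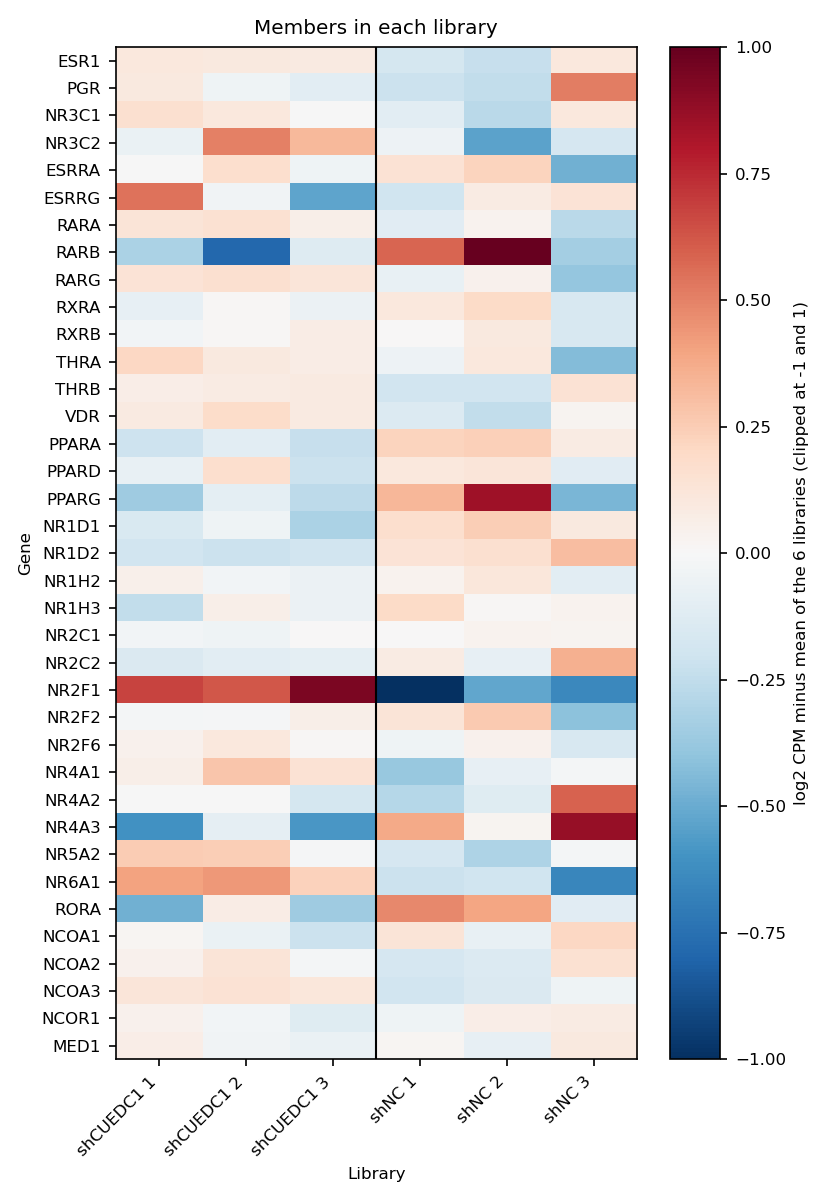
Log2 CPM of each of the 37 genes (rows) in each library (columns), minus the mean of the 6 libraries, with colours clipped at -1 and 1. NR2F1 is high in all 3 shCUEDC1 libraries, and shNC 3 differs from shNC 1 and 2 for PGR, ESRRA, RARB, PPARG and NR4A2.

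Without shNC 3, 13 members were called higher and 8 lower in shCUEDC1, where 28.1% of all genes tested were called, 14.3% higher and 13.8% lower. That is 21 of 37 (56.8%), against 4 of 37 with all libraries. The 4 members called with all libraries were among the 21. RARG was at 0.16 in this fit. Of the members not called in either fit, MED1 and RXRB differed in the other direction, by 0.025 and -0.028, as did ESRRA and NR4A2, given above. ESRRG was at 0.12, NCOA1 at -0.11, NCOR1 at -0.045, NR1H2 at -0.081, NR2F6 at 0.055 and PPARD at -0.14 without shNC 3, each over 1.5 times from its value with all libraries. The spread in this fit is estimated from 5 libraries, of which shNC 1 and shNC 2 were the most alike of any pair, with the SD of 0.109 given above. Relative to shNC 1 and 2, shNC 3 was higher by 0.74 for PGR, 0.79 for NR4A2 and 0.30 for ESR1 in log2 CPM. It was at -1.14 for RARB, -1.07 for PPARG, -0.66 for ESRRA and -0.60 for NR2F2 on the same scale.

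**Figure D5:**
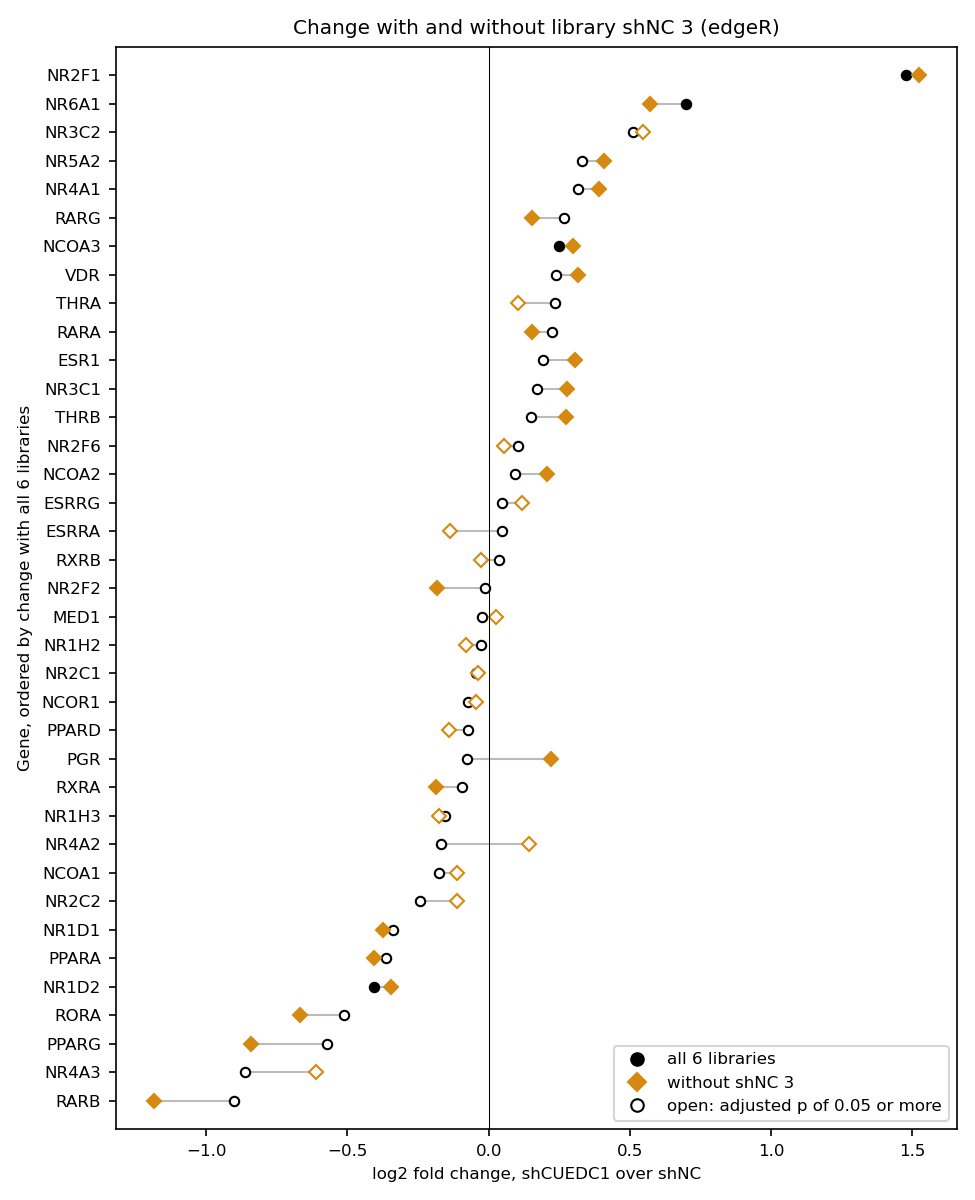
Log2 fold change of each gene, shCUEDC1 over shNC (horizontal axis), with all 6 libraries (circles) and without shNC 3 (diamonds), with filled symbols for an adjusted p below 0.05 in edgeR. PGR is at -0.08 with all libraries and at 0.22 without shNC 3, and 21 diamonds are filled against 4 circles.

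Further genes of receptor signalling were read in 14 lists, which were chosen with earlier results of these data known. The background is the share of all genes called by edgeR (9.96%) and the median of all genes (-0.0040). For the other counts it is 10.6% called by DESeq2 and 25.2% at an unadjusted p below 0.05. Without shNC 3 it is 28.1% called, 14.3% higher and 13.8% lower. Of 15 other nuclear receptors, 7 were tested and 0 were called by edgeR, while DESeq2 called 1 and 3 had an unadjusted p below 0.05. NR1I3, the constitutive androstane receptor of liver, differed by 0.56 (edgeR adjusted p = 0.325). Without shNC 3, 2 of the 7 were called higher and 0 lower.

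Among 26 other coactivators 0 rose and 1 fell, with a median log2 change of -0.0039, and 8 had an unadjusted p below 0.05. Without shNC 3, 6 rose and 4 fell. PPARGC1B, a coactivator of the oestrogen-related receptors, fell to 1.37 ± 0.0950 TPM in shCUEDC1, against 2.06 ± 0.370 TPM in shNC (log2 change -0.59, edgeR adjusted p = 0.0248), and was called in 3 of the 6 fits that left out 1 library. Among 20 other corepressors 2 rose and 0 fell (5 and 4 without shNC 3), with a median of 0.0099, and 7 had an unadjusted p below 0.05. LCOR, a ligand-dependent corepressor, rose by 0.30 and TBL1XR1, a subunit of the NCOR complex, by 0.19 (edgeR adjusted p = 0.0208 each). Each was called in 1 of the 6 fits that left out 1 library, with the highest adjusted p of 0.117 for LCOR without shCUEDC1 2 and 0.0991 for TBL1XR1 without shCUEDC1 1.

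Among 12 chaperones of steroid receptors 1 rose and 0 fell (3 and 3 without shNC 3), with a median of 0.035, and 4 had an unadjusted p below 0.05. FKBP5, a co-chaperone of the glucocorticoid and progesterone receptors that is also induced by them, was at 153, 143 and 133 TPM in shCUEDC1 1, 2 and 3, against 98.4, 93.6 and 108 TPM in shNC 1, 2 and 3. It rose by 0.54 (SE 0.0588, edgeR adjusted p = 7.26e-04) and was called in all 6 fits that left out 1 library. Among 10 pioneer and lineage factors 1 rose and 1 fell (5 and 2 without shNC 3), with a median of 0.12. An unadjusted p below 0.05 was reached by 8 of them, and DESeq2 called 3. SPDEF, a luminal ETS factor, rose by 0.33 (edgeR adjusted p = 0.00209) in all 6 such fits, and TFAP2A, which binds with ESR1 in breast cells, fell by 0.20 on the log2 scale (edgeR adjusted p = 0.0206) and was called in 1 of them, with an adjusted p of 0.117 without shCUEDC1 2.

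Of 16 genes listed as oestrogen receptor targets, 6 rose and 1 fell (8 and 4 without shNC 3), with a median of 0.17. An unadjusted p below 0.05 was reached by 9, and DESeq2 called 7. The 4 genes named here have the smallest p and all rose, so the gene that fell is not among them. PDZK1, a scaffold protein, was at 113 ± 2.48 TPM in shCUEDC1 and 31.3 ± 12.0 TPM in shNC (SD, n = 3 each) and rose by 1.88 (edgeR adjusted p = 0.00376). TFF1, a secreted trefoil peptide, was at 75.7 ± 4.03 TPM in shCUEDC1 and 38.2 ± 9.17 TPM in shNC and rose by 1.01 (edgeR adjusted p = 0.00427). Both were called in all 6 fits that left out 1 library. The chemokine CXCL12 rose by 0.25 and was called in 5 of them (adjusted p = 0.0634 without shCUEDC1 1), and SIAH2, a ubiquitin ligase, rose by 0.40 and was called in 1 (adjusted p = 0.0935 without shCUEDC1 3).

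Of 18 tested targets of progestins and glucocorticoids, 3 rose and 1 fell (4 and 1 without shNC 3), with a median of 0.030. An unadjusted p below 0.05 was reached by 5. Besides FKBP5, which counts in this list too, TAT, a hepatic tyrosine aminotransferase, was at 3.39 ± 0.451 TPM in shCUEDC1 and 0.773 ± 0.363 TPM in shNC and rose by 2.17 (edgeR adjusted p = 0.00124), in all 6 fits that left out 1 library. ELF5, an alveolar ETS factor, rose by 0.23 and was called in 2 of them (adjusted p = 0.0753 without shCUEDC1 1). WNT4, a paracrine factor of mammary branching, fell by 0.47 on the log2 scale and was called in 3 (adjusted p = 0.111 without shCUEDC1 2).

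Target lists of the other receptors had at most 2 called genes each. Of 7 retinoic acid receptor targets 0 were called by edgeR, 1 by DESeq2 and 2 had an unadjusted p below 0.05 (1 higher and 1 lower without shNC 3). CRABP2, a retinoic acid carrier, differed by -0.25 (edgeR adjusted p = 0.125), and NRIP1, a corepressor, by 0.17 (edgeR adjusted p = 0.469). Without shNC 3 both were called, CRABP2 at -0.36 (edgeR adjusted p = 7.01e-09) and NRIP1 at 0.35 (1.86e-07). Of 7 vitamin D receptor targets 0 rose and 1 fell (1 and 1 without shNC 3), and 1 had an unadjusted p below 0.05. That gene, IGFBP3, which binds insulin-like growth factors, was at 2.48 ± 0.247 TPM in shCUEDC1 and 9.95 ± 2.56 TPM in shNC and fell by 1.97 on the log2 scale (edgeR adjusted p = 3.33e-04), in all 6 fits that left out 1 library.

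Of 4 thyroid hormone receptor targets 0 rose and 1 fell (0 and 2 without shNC 3), and 2 had an unadjusted p below 0.05. THRSP, a lipogenic protein, fell by 0.97 on the log2 scale and was called in 2 of the 6 fits that left out 1 library (adjusted p = 0.0802 without shCUEDC1 2). Of 10 PPAR targets 0 were called by edgeR or DESeq2 and 2 had an unadjusted p below 0.05 (2 higher and 2 lower without shNC 3). Its highest genes, TXNIP and ACADVL, differed by 0.12 and 0.03, and by -0.04 each without shNC 3. Of 10 liver X receptor targets 0 rose and 1 fell (2 and 4 without shNC 3), and 3 had an unadjusted p below 0.05. SCD, the stearoyl-CoA desaturase, was at 97.0 ± 6.86 TPM in shCUEDC1 and 167 ± 41.0 TPM in shNC, fell by 0.75 on the log2 scale (edgeR adjusted p = 0.0226), and was called in 2 of the 6 such fits (adjusted p = 0.0795 without shCUEDC1 2).

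Of 14 clock genes listed for REV-ERB and ROR proteins, 1 rose and 1 fell (2 and 2 without shNC 3), with a median of -0.049. An unadjusted p below 0.05 was reached by 2. Whether each gene holds a site for these proteins was not checked. CRY1, a clock repressor, rose by 0.26 and was called in 1 of the 6 fits that left out 1 library (adjusted p = 0.101 without shCUEDC1 1). PER3, another, fell by 0.39 on the log2 scale and was called in 3 (adjusted p = 0.0987 without shCUEDC1 2). Of 10 targets of the oestrogen-related receptors 0 rose and 1 fell (1 and 6 without shNC 3), and 4 had an unadjusted p below 0.05. Cytochrome c (CYCS) was at 175 ± 2.98 TPM in shCUEDC1 and 210 ± 4.59 TPM in shNC, fell by 0.23 on the log2 scale (edgeR adjusted p = 0.00891), and was called in 4 (adjusted p = 0.0736 without shCUEDC1 2).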

How the data were processed

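RNA of 6 libraries of T47D cells was sequenced after poly(A) enrichment and random-primed cDNA synthesis, per the labels' protocols. The submitters' processing notes name the genome build GRCh38.p13. How they were aligned and counted, and whether strand was used, is not given in the sources used here. A single table of 17758 genes was deposited by the authors. It holds estimated counts (headed as read counts, with fractions, not normalised) and TPM, which the authors corrected for gene length and depth. A further 12 per-library columns were not used.

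Estimated counts were rounded, filtered with filterByExpr (minimum count 10), normalised by TMM and compared with the quasi-likelihood F test of edgeR 4.0.16 in R 4.3.3. P-values were adjusted over all 13824 genes tested by the Benjamini-Hochberg method, and a gene was called at an adjusted p below 0.05. Fold changes come from these counts, and levels are deposited TPM as mean ± SD. The standard error (SE) is the log2 change divided by the root of its F statistic. Library totals lay between 18924327 and 19731609 estimated reads. The fit was tested on simulated data.

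All 37 members are accounted for. Per-library values are given for called members, for the highest member of each role group and for ESR1, PGR, NR3C1 and NCOA3. Up to 4 called genes of each further list are named, those with the smallest p, or else its 2 highest by TPM. A further gene that this rule names is not reported here. Members and lists were chosen with earlier results of these data known. Alternatives were RLE size factors, no filter, at least 1 CPM in 3 libraries, DESeq2 1.42.0, limma-voom (limma 3.58.1), limma-trend on log2(TPM + 0.5) and log2(TPM + 0.1), a block for the replicate number, and leaving out each library in turn. The series calls the replicates biological, but separate infections or cultures are not mentioned, so p-values cover only the spread among the libraries, which may be technical. Gene positions are from GENCODE v29 on GRCh38.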

Additional observations from a re-analysis of the deposited data

How the results depend on the processing

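With 6 libraries, calls depend on single libraries. Leaving out 1 library moved the genes called, 1377 with all libraries, to between 468 and 3925, the members called higher to between 1 and 13 and the members called lower to between 1 and 8. The highest counts were without shNC 3. At least 1 CPM in 3 libraries gave 2 members lower, with PPARA added. The log2 change of ESRRG was -0.0067 with limma-voom, -0.026 on log2(TPM + 0.5) and -0.076 on log2(TPM + 0.1), and that of RXRB was -0.022 on both TPM scales. NR2F2 was at 0.014 with limma-voom. In the fits that left out 1 library, log2 changes crossed 0 for ESRRG (-0.27 to 0.27), NR2F2 (-0.18 to 0.12), ESRRA (-0.14 to 0.18), PPARD (-0.18 to 0.012), MED1 (-0.068 to 0.025), NR1H2 (-0.081 to 0.025), PGR (-0.21 to 0.22), RXRB (-0.028 to 0.097) and NR4A2 (-0.33 to 0.14). The cause was not tested.

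Libraries of the same replicate number did not deviate together (correlations of 0.0038, 0.065 and 0.026), and not every library correlated best with its own number. With the replicate number as a block, 1117 genes, 3 members higher and 1 lower were called, and NR2F2 was at 0.012. Depth limits ESRRG and NR4A3, with 6.56 to 19 estimated reads per library.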
